A study of Homo sapiens with 19 samples.

Results

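The response of MYCN-low SHEP TET21N cells to 72 h of doxorubicin was read from 4 of the 19 RNA sequencing libraries of the series. SHEP TET21N is an established human neuroblastoma line that carries a MYCN transgene under tetracycline control, and doxycycline in the medium keeps the transgene off. Doxycycline was present in both groups compared here, so the treated and the untreated cells share it. Because it sets the MYCN state, doxycycline and MYCN cannot be told apart where MYCN-high cells are compared with these. The untreated group had no doxorubicin (time 0) and the treated group was harvested after 72 h in 0.1 µg/ml doxorubicin. Each group held 2 libraries, lettered B and C, chosen by their column names. All values come from 1 line, and an untreated culture kept for the same 72 h was not used here, so time in culture and the drug cannot be told apart. The labels do not say how the lettered cultures were kept apart, so p-values measure the spread between libraries. That spread was pooled over the groups of all 19 libraries and was not taken from these 4 alone.

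Doxorubicin is an anthracycline that traps type II topoisomerases on DNA and leaves double-strand breaks. Breaks activate the kinases ATM and ATR, which stabilise the transcription factor p53. Among the genes that p53 activates is CDKN1A, whose product p21 inhibits cyclin-dependent kinases. The pocket proteins RBL1 and RBL2 then hold cell cycle genes in a repressed state together with the DREAM complex, which binds the cell cycle homology region (CHR), and with E2F factors at E2F sites. Many promoters with a CHR also hold CCAAT boxes, which NF-Y binds. A library is a mixture of cells, so fewer cells in a phase and less RNA per cell cannot be told apart.

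Levels below are CPM (gene counts scaled to library size) after TMM scaling, given for libraries B and C in that order, and log2 fold changes are treated minus untreated with their standard error from edgeR's quasi-likelihood fit over all 19 libraries. Transcripts of the transgene were at 30.7 and 19.1 CPM in the untreated MYCN-low libraries and at 21.1 and 20.04 CPM after treatment, against 675 and 690.4 CPM in untreated and 633 and 1416 CPM in treated MYCN-high libraries, so the labels of the MYCN state held. MYCN did not pass the test in MYCN-low cells (-0.27 ± 0.30, adjusted p = 0.55). The 4 libraries held 17069126 to 25872769 gene counts. The untreated pair stood further apart than the treated pair, with 1554 against 462 of 14793 tested genes over 2-fold apart. That spread followed transcript GC content: the median log2 ratio of untreated C to B was 0.48 in the quintile of lowest GC and -0.55 in the highest, against 0.06 and -0.08 for the treated pair. The share of genes called lower was 9.36% in the lowest and 19.9% in the highest GC quintile. The share called higher went the other way, from 14.3% in the lowest to 4.09% in the highest. A fit with the GC trend of each library removed called 3406 of the 13089 genes with a known transcript GC. The adrenergic markers PHOX2A, TH and DBH had 0 counts in these 4 libraries. Other adrenergic markers were present: the 8 tested of 17 listed summed to 240.9 and 174.8 CPM untreated and 125.1 and 160.7 CPM treated. The mesenchymal marker VIM was at 2655 and 2312 CPM untreated and 1654 and 1319 CPM treated. Of the leukocyte markers 5 of 12 were tested, with a summed level of 81.4 and 52.7 CPM untreated and 50.7 and 47.3 CPM treated, nearly all of it CD68, while CD3E was at 0 in all 4 libraries. PTPRC, the 1 leukocyte marker called, had 1 count untreated and was at 0.828 and 0.724 CPM treated, a ratio of 33.6 (95% counting interval 5.61 to 1367). Its call did not hold in every fit that left out 1 library. The 6 tested epithelial markers summed to 11.4 and 17.4 CPM untreated and 2.73 and 2.85 CPM treated, CLDN4 being the 1 called, lower. The 8 endothelial markers summed to 2.17 to 5.71 CPM with none called, and CDH1 and CDH5 had at most 2 counts in any of these 4 libraries.

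Treatment changed 3305 of the 14793 genes at an adjusted p of 0.05, 1516 higher (10.2%) and 1789 lower (12.1%). These shares are the background for each count of called list members below. The falls were the larger changes: 157 genes fell by at least 5 on the log2 scale, while 82 rose by at least 4. These counts include fitted values over an empty group, since 28 called falls had no count in either treated library and 45 called rises none in either untreated library. Among genes with a mean of at least 5 CPM over the 4 libraries, the 12 largest rises included GDF15, TGFA, TRIM22, EPHA4, CYFIP2 and CDKN1A, which are described with their groups. TP53INP1, a p53 target, rose from 7.14 and 6.86 to 97.2 and 82.5 CPM (3.68 ± 0.55). WDR63 rose from 1.32 and 2.23 to 31.3 and 34.0 CPM (4.17 ± 0.36, adjusted p = 6.2e-07), and the glucose transporter gene SLC2A12 from 0.604 and 1.08 to 13.1 and 15.0 CPM (4.02 ± 0.46, adjusted p = 1.1e-05). PALMD rose from 3.46 and 3.99 to 59.8 and 38.0 CPM (3.71 ± 0.42), LOC375010 from 0.989 and 1.36 to 26.3 and 21.7 CPM (4.33 ± 0.44), and DKK2, which encodes a secreted modulator of Wnt signalling, from 2.31 and 1.56 to 23.3 and 41.3 CPM (4.07 ± 0.77). The treated libraries were above both untreated libraries for each of these, which the rule for naming genes by size required. In the other direction stood genes of mitosis, replication and the replication-dependent histones. Scaled to the ERCC spike-in RNAs instead of by TMM, the median of all tested genes moved from 0.01 to 0.52, and 60 genes were called, 2 higher and 58 lower. The spike-in share of the reads was 0.367% and 0.120% in the untreated and 0.190% and 0.0921% in the treated libraries, so libraries B and C of a group differed by over 2-fold. Without treated library B 1807 genes were called and without untreated library C 4819.

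**Figure D1:**
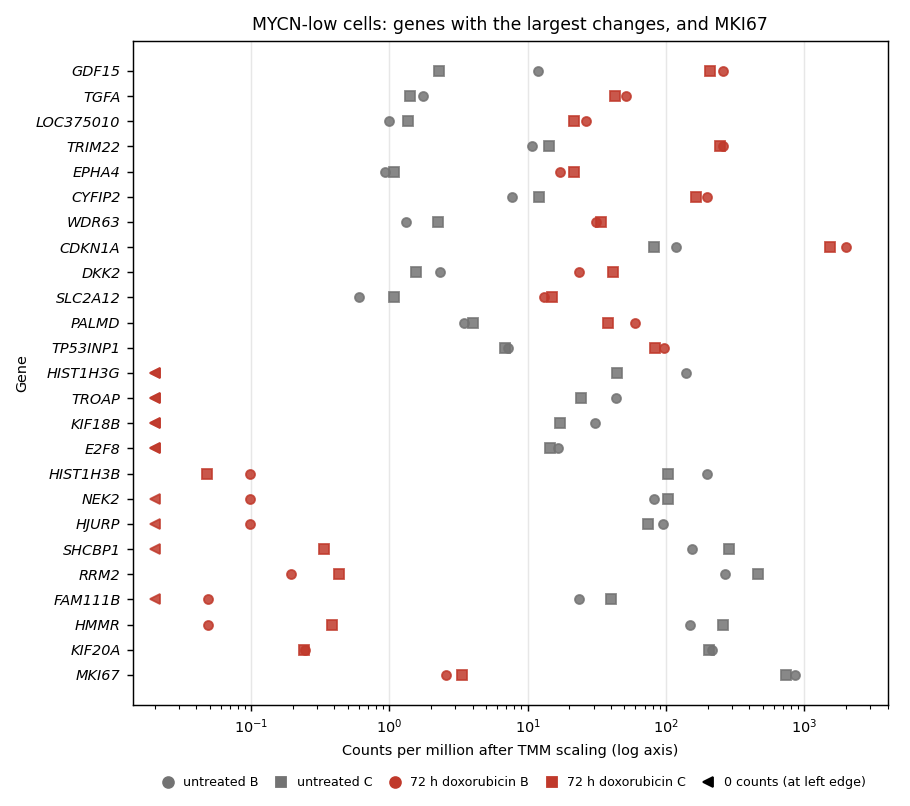
CPM per library on a log axis for the genes with the largest changes among those with a mean of at least 5 CPM and for MKI67, with untreated libraries in grey and treated libraries in red, B as circles and C as squares; triangles at the left edge mark 0 counts. The treated libraries lie above both untreated libraries for all 12 risen genes and below both for the 12 fallen genes, as their selection required. For MKI67, which was not selected that way, they lie below both as well.

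The p53 targets that restrain the cell cycle and p53 itself rose almost as a body. Of 27 targets listed for checkpoint and feedback, 25 rose and 1 fell, against 10.2% and 12.1% of all tested genes, and their median log2 fold change was 1.75, where that of all tested genes was 0.01. CDKN1A was at 117 and 81.2 CPM untreated and 1999.6 and 1529 CPM treated (4.15 ± 0.37, adjusted p = 9.4e-07). BTG2, an antiproliferative co-regulator of mRNA decay, went from 11.2 and 6.10 to 107 and 96.1 CPM (3.56 ± 0.35, adjusted p = 2.3e-06). No untreated library reached the lower treated one for either gene. The negative regulators of p53 rose with its effectors: MDM2, the ubiquitin ligase for p53, from 183 and 310.0 to 1726 and 1502 CPM (2.71 ± 0.30), and PPM1D, the phosphatase WIP1, from 47.1 and 37.0 to 139 and 143 CPM (1.75 ± 0.17). CCNG1, another feedback gene, rose by 1.17 and ZMAT3, which encodes an RNA-binding protein, by 2.71 on the log2 scale. Both tested sestrins, which restrain mTORC1, rose: SESN1 from 9.18 and 20.6 to 108 and 115 CPM (2.89 ± 0.31) and SESN2 from 19.6 and 6.46 to 77.1 and 53.5 CPM (2.34 ± 0.38). CYFIP2, part of the WAVE actin regulatory complex and a known p53 target, was at 7.75 and 12.1 CPM untreated and 198 and 163 CPM treated. TRIM22, known both as a p53 target and as an interferon-stimulated gene, was at 10.7 and 14.2 and 258 and 244 CPM. GADD45A, a stress sensor, rose from 50.3 and 91.2 to 152 and 150.2 CPM (1.10 ± 0.26, adjusted p = 0.0062). The member that went against the rest was E2F7, an atypical E2F that represses E2F targets, which fell from 77.0 and 90.6 to 40.8 and 31.1 CPM (-1.22 ± 0.25, adjusted p = 0.0028). SERTAD1 was the 1 member that did not pass the test (-0.27 ± 0.35). Between 21 and 23 members rose when each of the 4 libraries was left out in turn.

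Targets of p53 in cell death rose in part. Of 19 tested, 12 rose and none fell (11, 12, 10 and 10 rose and 0, 2, 0 and 0 fell without untreated B, untreated C, treated B and treated C), and the median log2 fold change was 0.86. BBC3, the BH3-only protein PUMA, went from 3.19 and 2.11 to 35.8 and 28.98 CPM (3.62 ± 0.35, adjusted p = 1.9e-06), and EDA2R, a death-domain receptor, from 7.58 and 12.0 to 81.2 and 63.6 CPM (2.88 ± 0.27). TP53I3, an oxidoreductase, and DRAM1, a lysosomal protein of autophagy, rose by 2.16 and 2.01. SPATA18, a mitochondrial quality control gene, rose by 3.06 and CASP1, the inflammatory caspase, by 2.22 from a low level (1.21 and 1.91 CPM untreated, 7.01 and 7.68 CPM treated). The death receptor gene TNFRSF10B rose from 92.7 and 49.9 to 266 and 223 CPM (1.78 ± 0.27). PMAIP1, the BH3-only protein NOXA, overlapped between the groups at 81.4 and 119 CPM untreated and 117 and 98.9 CPM treated (0.11 ± 0.22). APAF1, the scaffold of the apoptosome, was at 24.9 and 31.4 and 40.4 and 38.8 CPM and missed the threshold (0.49 ± 0.17, adjusted p = 0.053). TP53AIP1 was not tested, with 0 counts in these 4 libraries.

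Within the BCL2 family, which decides mitochondrial permeability, members of both kinds moved. Of 15 tested, 6 rose and 3 fell. BCL2 itself, an anti-apoptotic member, fell from 11.1 and 12.3 to 2.97 and 2.41 CPM (-2.12 ± 0.37, adjusted p = 7.7e-04). The mitophagy receptors BNIP3L and BNIP3 rose, BNIP3L from 79.8 and 101 to 238 and 234 CPM (1.39 ± 0.18) and BNIP3 from 51.5 and 49.9 to 90.7 and 104 CPM (0.94 ± 0.16). The pore-forming BAX (0.82 ± 0.26, not called in 3 of the 8 fits without 1 library, adjusted p up to 0.18 without untreated library C) and the anti-apoptotic BCL2L1 (0.80 ± 0.27, not called in 5 of the 8 fits without 1 library, adjusted p up to 0.24 without untreated library C) rose together, and MCL1, also anti-apoptotic, did not pass the test (0.49 ± 0.18, adjusted p = 0.063). Without treated library C the counts were 3 higher and 1 lower, and without treated library B 4 and 1.

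The third group of p53 targets acts in DNA repair and metabolism, and 14 of 20 tested members rose while 0 fell (median 1.43). XPC, which recognises helix distortion in nucleotide excision repair, went from 53.8 and 68.9 to 305 and 300.5 CPM (2.30 ± 0.17, adjusted p = 2.6e-07), and its partner in damage recognition DDB2 from 15.4 and 13.1 to 57.7 and 56.5 CPM (2.01 ± 0.26). RRM2B, the p53-controlled small subunit of ribonucleotide reductase, rose from 62.7 and 96.9 to 486 and 462 CPM (2.57 ± 0.25). FDXR, a mitochondrial electron carrier reductase, rose from 24.1 and 20.6 to 203 and 141.9 CPM (2.95 ± 0.27), and C12orf5, the fructose bisphosphatase TIGAR, was at 21.5 and 21.8 CPM untreated and 176 and 161 CPM treated. The translesion polymerase POLH rose by 0.63 and the selenoprotein peroxidase GPX1 by 1.35. GLS2, SCO2 and LIF, known p53 targets as well, did not pass the test; GLS2 had under 1 CPM in every library.

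Of the machinery between p21 and the cell cycle genes, the inhibitors other than CDKN1A did not rise. In the list of CDK inhibitors, pocket proteins and DREAM subunits, 1 of 12 tested members rose, CDKN1A, and 7 fell. The INK4 genes CDKN2A and CDKN2B had 0 counts in all 19 libraries, and the other INK4 genes fell: CDKN2C from 96.1 and 115 to 26.5 and 30.1 CPM (-1.90 ± 0.26) and CDKN2D from 8.13 and 8.58 to 1.85 and 2.32 CPM (-2.00 ± 0.40). The KIP gene CDKN1B was at 40.4 and 38.7 and 32.9 and 31.9 CPM (-0.29 ± 0.19, adjusted p = 0.29). Among the pocket proteins RBL1 fell from 61.4 and 97.1 to 14.6 and 11.1 CPM (-2.63 ± 0.34, adjusted p = 4.4e-05), while RB1 (-0.37 ± 0.13, adjusted p = 0.059) and RBL2 (0.34 ± 0.13, adjusted p = 0.077) did not pass the test. The DREAM core subunits LIN9 (-1.93 ± 0.21) and LIN54 (-1.25 ± 0.17) fell.

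The cyclins of G1 and S phase did not all move. CCNE2, a cyclin of the G1/S transition, fell from 26.5 and 42.2 to 0.292 and 0.676 CPM (-6.13 ± 0.67, adjusted p = 7.3e-06), whereas CCNE1 was at 9.62 and 13.0 and 8.47 and 9.27 CPM and did not pass the test (-0.35 ± 0.23, adjusted p = 0.29). CCNA2, the S and G2 phase cyclin, went from 256 and 276 to 2.92 and 5.17 CPM, and its kinase CDK2 from 102 and 85.2 to 14.3 and 14.9 CPM (-2.68 ± 0.28). CDC25A, the phosphatase that activates CDK2, fell from 27.5 and 28.6 to 4.48 and 4.68 CPM (-2.61 ± 0.35). CCND1 (0.52 ± 0.25), CDK4 (-0.47 ± 0.17) and CDK6 (-0.37 ± 0.27), which act earlier in G1, did not pass the test. Of 10 E2F and DP factors 6 fell: E2F8, an atypical E2F, had no count in either treated library against 16.6 and 14.4 CPM untreated (at least 213-fold lower), and E2F2 likewise (untreated 8.74 and 6.38 CPM, at least 104-fold lower). E2F1 fell from 22.5 and 14.9 to 0.0974 and 0.628 CPM (-5.66 ± 0.73), and E2F3, E2F5 and E2F6 lay between -0.11 and 0.11 and did not pass the test.

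Before the values of replication and mitosis genes, the stretches upstream of 7 of them show the elements named above. They are the 150 bases before the RefSeq start on GRCh38.p14, 5′ to 3′ on the gene's strand, and capitals mark the searched motifs on either strand. The CHR was searched as TTTGAA. The box bound by NF-Y was searched as its name spells it, CCAAT. An E2F site was searched as TTTCCCGC or TTTGGCGC. PLK1, CCNB2, KIF11 and MKI67 stand for mitosis, GINS2 and MCM6 for replication, and HIST1H3G for the histones and the largest fitted fall. In MKI67 a CHR and a CCAAT box share 1 base. These stretches all hold a motif, which many windows of the same lists do not.
PLK1 (chr16:23678739-23678888, plus strand): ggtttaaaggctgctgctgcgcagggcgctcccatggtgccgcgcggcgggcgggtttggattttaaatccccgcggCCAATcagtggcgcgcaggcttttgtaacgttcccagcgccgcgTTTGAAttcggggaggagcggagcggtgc
CCNB2 (chr15:59104996-59105145, plus strand): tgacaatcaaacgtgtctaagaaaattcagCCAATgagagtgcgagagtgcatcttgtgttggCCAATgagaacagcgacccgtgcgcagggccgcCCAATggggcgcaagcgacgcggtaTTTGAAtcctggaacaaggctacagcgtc
KIF11 (chr10:92592980-92593129, plus strand): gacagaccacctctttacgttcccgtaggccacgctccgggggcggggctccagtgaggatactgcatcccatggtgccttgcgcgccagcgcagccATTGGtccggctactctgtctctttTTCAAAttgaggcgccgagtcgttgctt
MKI67 (chr10:128126424-128126573, minus strand): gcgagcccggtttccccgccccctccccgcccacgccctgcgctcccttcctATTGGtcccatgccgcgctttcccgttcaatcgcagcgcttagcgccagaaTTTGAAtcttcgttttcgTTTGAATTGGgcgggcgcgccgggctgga
GINS2 (chr16:85688955-85689104, minus strand): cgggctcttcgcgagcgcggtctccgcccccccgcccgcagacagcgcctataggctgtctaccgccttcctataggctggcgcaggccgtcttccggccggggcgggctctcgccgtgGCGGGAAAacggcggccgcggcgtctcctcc
MCM6 (chr2:135876444-135876593, minus strand): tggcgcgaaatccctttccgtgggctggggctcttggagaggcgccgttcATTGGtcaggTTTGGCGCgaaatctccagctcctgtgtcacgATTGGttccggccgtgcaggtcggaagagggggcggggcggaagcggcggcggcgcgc
HIST1H3G (chr6:26271414-26271563, minus strand): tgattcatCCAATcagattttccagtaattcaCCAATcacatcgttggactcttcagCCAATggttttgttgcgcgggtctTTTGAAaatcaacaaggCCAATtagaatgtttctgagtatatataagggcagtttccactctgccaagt

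Across the 11255 tested genes with a RefSeq promoter window (250 bases before to 50 after the start), 10.4% held a CHR, 37% a CCAAT box, 3.56% an E2F site and 4.28% both a CHR and a CCAAT box. Of all 1468 genes called lower with a window, 15% held a CHR, 45.2% a CCAAT box and 9.6% both. Of the 120 with a window that fell by at least 5 on the log2 scale, 47.5% held a CHR, 69.2% a CCAAT box and 37.5% both. In the 1217 genes called higher these shares were 10.3%, 36.5% and 3.78%. By group, 20 of 27 mitotic kinesin and spindle genes with a window held a CHR (74.1%), as did 7 of 16 mitotic entry genes (43.8%) and 16 of 35 kinetochore genes (45.7%), against 1 of 41 replication genes (2.44%). An E2F site stood in 36.6% of the replication windows and in 2 of the 27 mitotic kinesin windows (7.41%). CCAAT boxes were in 86% of the 43 windows of replication-dependent histones, of which none held an E2F site of these letters. A CHR was in 41.9% of the histone windows. None of the 21 windows of p53 checkpoint targets held a CHR, while 47.6% held a CCAAT box and 19% an E2F site. These letters in a window are a description and show no binding.

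**Figure D2:**
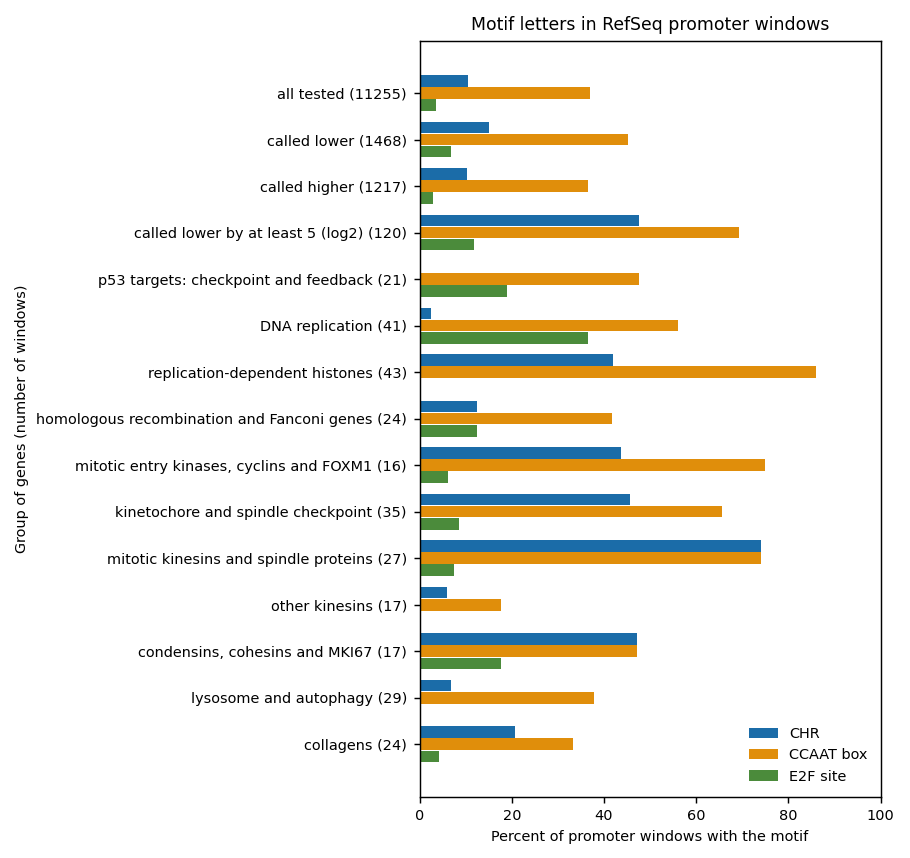
Percent of RefSeq promoter windows (250 bases before to 50 after the start) with a CHR, a CCAAT box or an E2F site, by group of genes, with the number of windows beside each group. CHR letters are in 74.1% of mitotic kinesin windows and 2.44% of replication windows, against 10.4% of all windows, and E2F letters in 36.6% of replication windows against 3.56% of all.

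Replication genes fell throughout the pathway, from origin licensing to the fork. Of 47 tested, 45 fell and none rose, with a median log2 fold change of -2.94. Licensing factors were among the deepest: CDC6, the loader of the MCM helicase, fell from 75.7 and 101 to 2.29 and 2.46 CPM (-5.21 ± 0.54, adjusted p = 3.8e-06), ORC1 from 21.3 and 26.4 to 0.341 and 0.290 CPM (-6.22 ± 0.64) and CDT1 from 15.4 and 11.4 to 0.974 and 0.145 CPM (-4.57 ± 0.58). The 6 subunits of the MCM2-7 helicase fell by unequal amounts. MCM5 went from 94.8 and 99.9 to 5.84 and 5.12 CPM (-4.15 ± 0.33) and MCM7 from 315 and 345 to 21.4 and 20.8 CPM (-3.97 ± 0.34), while MCM3 fell from 115 and 169.9 to 36.2 and 33.2 CPM (-2.04 ± 0.23) and MCM6 from 68.1 and 78.9 to 16.0 and 20.1 CPM (-2.02 ± 0.29). Every treated library lay below every untreated one for these 4 subunits. The activators of the helicase fell as well, MCM10 from 64.5 and 77.6 to 0.0487 and 0.483 CPM (-8.03 ± 0.69) and CDC45 to 0.0487 and 0.241 CPM, and of the GINS complex GINS2 fell from 32.2 and 23.3 to 1.61 and 2.12 CPM (-3.89 ± 0.50). Of the replicative polymerases, POLA1 of the primase complex had a log2 fold change of -1.75 ± 0.26, POLD1 one of -2.80 ± 0.29 and POLE2 one of -3.77 ± 0.46. The genes without a call were PCNA, the sliding clamp and also a known p53 target, at 151 and 202 CPM untreated and 242 and 227 CPM treated (0.41 ± 0.19, adjusted p = 0.14), and RFC1, the large subunit of the clamp loader (-0.11 ± 0.14). Both treated libraries were above both untreated ones for PCNA, as they were for 4181 of all 14793 tested genes. They were below both for 3818.

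Transcripts of the small subunits of ribonucleotide reductase moved in opposite directions. RRM2, the S phase subunit, fell from 265 and 462 to 0.195 and 0.435 CPM (-10.15 ± 0.79, adjusted p = 3.1e-07), and RRM2B rose as given above. The large subunit RRM1 fell from 333 and 691 to 201 and 152 CPM (-1.53 ± 0.26). In all 9 of 12 tested members fell and 1 rose. TYMS, thymidylate synthase, fell from 48.2 and 58.8 to 29.6 and 30.7 CPM (-0.83 ± 0.19). SAMHD1, which degrades deoxynucleotides, did not pass the test (-0.41 ± 0.17).

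Replication-dependent histone transcripts, which are made in S phase and carry no poly(A) tail, fell in 52 of 53 tested members (median -4.94). The linker histone gene HIST1H1B went from 446 and 469.7 to 0.974 and 0.483 CPM (-9.29 ± 0.87, adjusted p = 1.5e-06). HIST1H3G had no count in either treated library (untreated 139 and 44.0 CPM, at least 1258-fold lower), and HIST1H3B had 3 counts in all (untreated 199 and 103 CPM, a ratio of 1975 (95% counting interval 675 to 9578)). Members that fell by less included HIST1H2AC (-0.72 ± 0.20, not called in 2 of the 8 fits without 1 library, adjusted p up to 0.14 without treated library C) and HIST1H2BD (-1.20 ± 0.18), and HIST3H2A was the member without a call (-0.11 ± 0.23). Counting intervals cover counting error only. Because these genes are near-identical copies, the share of reads that the counting gave to each is uncertain. The labels name both polyA RNA and ribosomal RNA depletion, so how fully transcripts without a tail were captured is uncertain as well. Of 10 replication-independent variants 5 fell, among them H2AFZ from 310.3 and 359 to 47.3 and 43.8 CPM (-2.88 ± 0.26) and H2AFX, whose product is phosphorylated at breaks, from 65.4 and 38.9 to 3.80 and 4.59 CPM (-3.63 ± 0.41), while H3F3B did not pass the test (0.29 ± 0.18) and H3F3A was listed at 0 counts in all libraries.

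All 22 tested genes of mitotic entry fell, with a median log2 fold change of -6.08. CDK1, the mitotic kinase, went from 118 and 234 to 2.04 and 3.72 CPM (-5.93 ± 0.59, adjusted p = 2.6e-06) and CCNB2, one of its cyclins, from 102 and 125 to 0.876 and 1.26 CPM (-6.72 ± 0.49). PLK1, which acts from entry to cytokinesis, fell from 160.1 and 77.4 to 0.243 and 0.435 CPM (-8.42 ± 0.88, adjusted p = 4.2e-06). The Aurora kinases fell as well, AURKA from 204 and 174 to 3.65 and 6.08 CPM (-5.28 ± 0.41) and AURKB from 89.2 and 61.7 to 0.682 and 0.628 CPM (-6.83 ± 0.68). The transcription factors that switch these genes on in G2 fell with them: FOXM1 from 127 and 80.0 to 1.56 and 1.40 CPM (-6.12 ± 0.55) and MYBL2 from 188 and 104 to 0.389 and 0 CPM (-9.51 ± 0.82). NEK2, a centrosomal kinase, kept 2 counts in the treated group (untreated 82.0 and 103 CPM, a ratio of 1939.5 (95% counting interval 537 to 16021)). WEE1, which inhibits CDK1, fell least, from 71.4 and 91.7 to 27.8 and 37.0 CPM (-1.33 ± 0.22).

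Genes of the anaphase-promoting complex fell in part. In the list of the anaphase-promoting complex and its regulators, 11 of 20 fell and 1 rose. CDC20, its mitotic activator, fell from 149.7 and 89.1 to 0.243 and 0.290 CPM (-8.77 ± 0.89, adjusted p = 3.3e-06), and the E2 enzyme UBE2C from 116 and 88.8 to 0 and 0.241 CPM (-9.66 ± 0.99). ESPL1, the separase that opens cohesin, fell from 57.3 and 31.2 to 0.292 and 0.241 CPM (-7.34 ± 0.57) and its inhibitor PTTG1 from 77.4 and 102 to 3.31 and 4.20 CPM (-4.58 ± 0.36). FZR1, the activator that works in G1, fell from 77.1 and 35.5 to 18.3 and 18.7 CPM (-1.60 ± 0.27). Of the core subunits ANAPC2 (-0.87 ± 0.30, not called in 4 of the 8 fits without 1 library, adjusted p up to 0.31 without treated library B) and ANAPC11 (-0.95 ± 0.20) fell, ANAPC4, ANAPC10, ANAPC13, CDC16 and CDC23 did not pass the test, and ANAPC16 was the member that rose (0.50 ± 0.16, not called in 5 of the 8 fits without 1 library, adjusted p up to 0.16 without treated library B).

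Of 45 kinetochore and spindle checkpoint genes 41 fell and none rose (median -4.70). At the centromere, CENPA, the histone H3 variant that marks it, fell from 35.8 and 39.7 to 0 and 0.290 CPM (-7.96 ± 0.80), and its chaperone HJURP kept 2 counts in the treated group (untreated 94.6 and 74.1 CPM, a ratio of 1706 (95% counting interval 472 to 14092)). NDC80, which binds microtubules, fell from 73.1 and 137 to 1.66 and 2.66 CPM (-5.61 ± 0.41, adjusted p = 2.5e-07) and its partner NUF2 from 73.8 and 111 to 0.0487 and 0.435 CPM (-8.54 ± 0.50). The checkpoint kinase TTK fell from 119 and 157 to 1.02 and 0.869 CPM (-7.18 ± 0.53) and BUB1B from 129 and 189 to 2.14 and 1.93 CPM (-6.28 ± 0.50), whereas BUB3, which also has roles outside mitosis, fell from 129 and 162 to 66.7 and 70.3 CPM (-1.09 ± 0.16). BIRC5, survivin of the chromosomal passenger complex, went from 348 and 334 to 0.925 and 0.435 CPM (-8.96 ± 0.76). MAD1L1 (-0.42 ± 0.17), SKA2 (-0.59 ± 0.26), NSL1 (-0.13 ± 0.18) and MIS12 (-0.47 ± 0.26) did not pass the test.

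Mitotic kinesins fell as a whole list. All 29 mitotic kinesins and spindle proteins fell (median -6.31), and of 25 other kinesins and light chains none fell and 2 rose. Without untreated B, untreated C, treated B and treated C in turn 0, 3, 0 and 0 of these others fell and 3, 6, 1 and 2 rose. KIF11, the motor that separates spindle poles, went from 306 and 534 to 6.57 and 7.24 CPM (-5.93 ± 0.45, adjusted p = 2.9e-07) and KIF2C, a microtubule depolymerase, from 179 and 185 to 0.292 and 0.145 CPM (-9.66 ± 0.77, adjusted p = 3.5e-07). The spindle midzone genes PRC1 (363 and 455 to 4.24 and 5.55 CPM, -6.38 ± 0.54) and ANLN, which builds the contractile ring (836 and 1052 to 7.01 and 6.81 CPM, -7.09 ± 0.54), fell as well. TROAP and KIF18B had no count after treatment, from 43.6 and 24.3 and 30.5 and 17.2 CPM, and were at least 467-fold and 328-fold lower. CKAP5, a microtubule polymerase used in all phases, fell least (614 and 768 to 427 and 401 CPM, -0.74 ± 0.15). KIF5B, a transport kinesin, overlapped between the groups at 867 and 1296 CPM untreated and 1207 and 1128 CPM treated (0.11 ± 0.20). KIF26B, which lacks motor activity, rose from 3.19 and 0.758 to 22.9 and 24.9 CPM (3.64 ± 0.62, adjusted p = 5.5e-04), and the neuronal KIF5C from 4.78 and 5.39 to 15.8 and 11.3 CPM (1.41 ± 0.31, not called in 1 of the 8 fits without 1 library, adjusted p up to 0.052 without treated library B). The counts of called mitotic entry and mitotic kinesin genes were the same without any single library of the 4.

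Condensin and cohesin genes fell in part. MKI67, the surfactant of mitotic chromosomes, was at 853 and 742 CPM untreated and 2.58 and 3.33 CPM treated. Condensin I subunit NCAPH fell from 112 and 149.9 to 0.584 and 0.821 CPM (-7.53 ± 0.63, adjusted p = 4.8e-07), and condensin II subunit NCAPH2 from 76.3 and 50.9 to 18.3 and 16.1 CPM (-1.89 ± 0.31). Among cohesin genes the S phase acetyltransferase ESCO2 fell from 54.9 and 91.5 to 0.146 and 0.241 CPM (-8.52 ± 0.68) and the core subunit RAD21 from 269 and 364 to 133 and 135 CPM (-1.24 ± 0.16), while ESCO1 (0.49 ± 0.19), STAG2 (-0.13 ± 0.24) and the loader NIPBL (-0.12 ± 0.22) did not pass the test. Of 21 tested members of this list 14 fell and none rose.

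**Figure D3:**
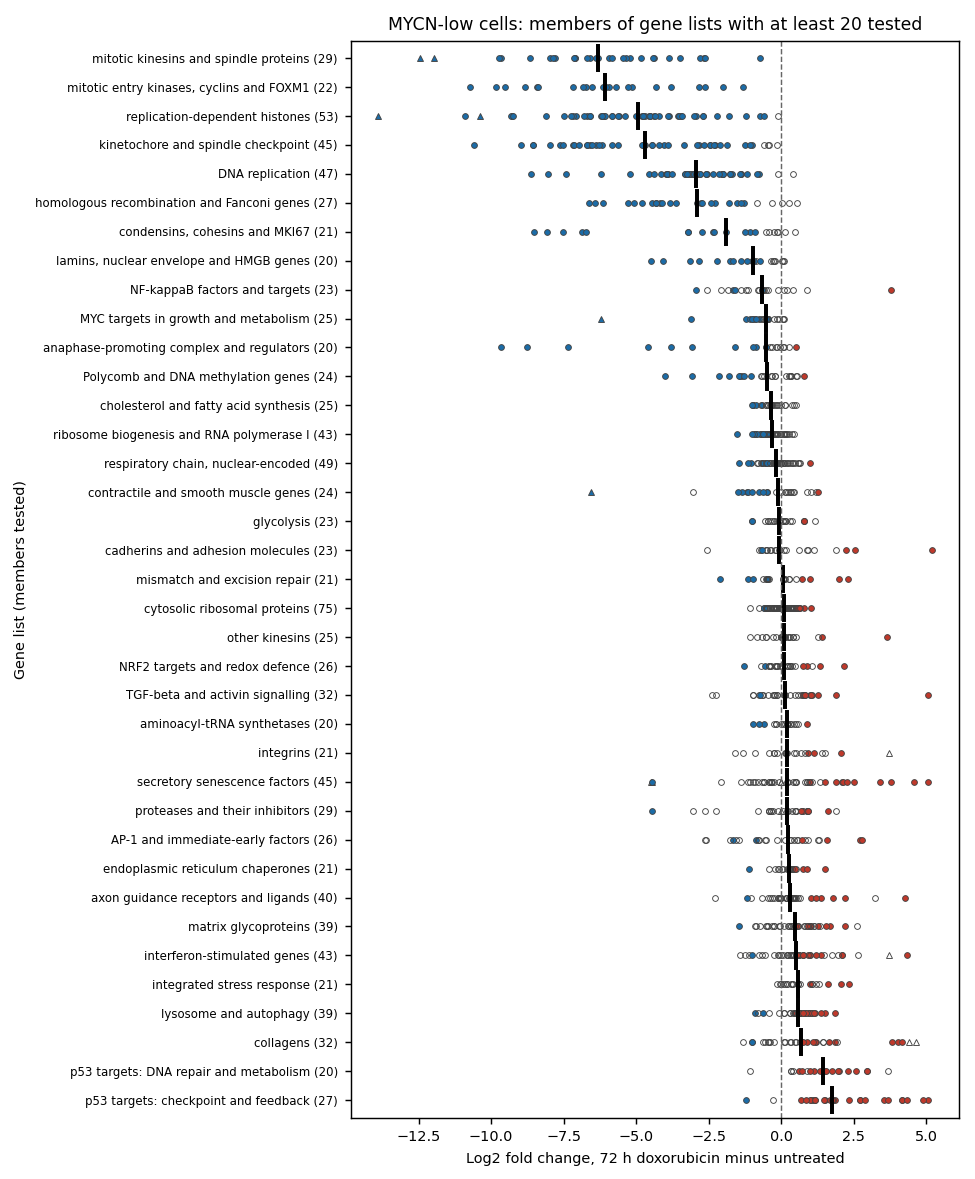
Log2 fold change (treated minus untreated) of each tested member of the gene lists with at least 20 tested members, with a black bar at each list's median. Called members are filled and members without a call are open. Triangles, filled or open, mark genes with 0 counts in a group, whose fitted value is no bound. The dashed line marks the median of all tested genes, 0.01; the mitotic entry, kinetochore and mitotic kinesin lists lie at the left with medians of -6.08, -4.70 and -6.31, and the p53 checkpoint list at the right with a median of 1.75.

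The nuclear envelope and chromatin genes that changed were nearly all lower. Of 20 lamin, envelope and HMG genes 12 fell: the B-type lamin gene LMNB2 from 630.4 and 425 to 118 and 112 CPM (-2.20 ± 0.24) and TMPO, a lamin-binding protein, from 316 and 528 to 47.6 and 48.9 CPM (-3.13 ± 0.29). LMNA, the A-type gene, was at 1076 and 999 and 913 and 729.7 CPM and did not pass the test (-0.34 ± 0.16, adjusted p = 0.16). HMGB2 fell from 920.1 and 995 to 55.5 and 57.4 CPM (-4.08 ± 0.44, adjusted p = 5.4e-06), and HMGB1, a chromatin protein that is also released as an alarmin, from 449 and 659 to 154 and 169 CPM (-1.78 ± 0.19). HMGA1, an architectural factor of senescent chromatin, fell from 166 and 117 to 18.4 and 21.3 CPM (-2.83 ± 0.52). Of 24 Polycomb and DNA methylation genes 8 fell and 1 rose, with a list median of -0.47 by TMM and 0.09 by spike-in scaling. EZH2, the H3K27 methyltransferase, fell from 86.4 and 123 to 25.3 and 22.1 CPM (-2.14 ± 0.24), and its homologue EZH1 missed the threshold (0.57 ± 0.23, adjusted p = 0.087). The maintenance methyltransferase DNMT1 fell from 272 and 308 to 86.7 and 79.9 CPM (-1.80 ± 0.17) and its partner UHRF1 from 65.2 and 100.4 to 3.75 and 6.66 CPM (-3.99 ± 0.41), while DNMT3A, a de novo enzyme, rose from 15.8 and 13.6 to 25.6 and 25.8 CPM (0.81 ± 0.20, adjusted p = 0.0083).

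Genes of homologous recombination fell, and those of other repair pathways fell in part. In the list that joins homologous recombination with Fanconi genes 22 of 27 fell (median -2.91). BRCA1 fell from 89.0 and 161 to 8.76 and 8.79 CPM (-3.83 ± 0.30) and BRCA2 from 49.7 and 78.7 to 4.48 and 5.89 CPM (-3.63 ± 0.34). FANCD2 fell from 81.0 and 85.8 to 2.09 and 2.17 CPM (-5.29 ± 0.46), whereas PALB2 (0.03 ± 0.19) and FANCF (0.28 ± 0.21) did not pass the test. In end joining 5 of 14 members fell, with a list median of -0.43 by TMM and 0.20 by spike-in scaling. Leaving out untreated B, untreated C, treated B or treated C, in that order here and below, gave 5, 4, 2 and 3 end joining falls. PARP1 fell from 235 and 267 to 126 and 139 CPM (-0.92 ± 0.15), and the ligase gene LIG4 was at 23.9 and 40.5 and 51.4 and 43.9 CPM (0.56 ± 0.28, adjusted p = 0.16). Of the break sensors and checkpoint kinases, CHEK1 fell from 76.3 and 110.3 to 10.9 and 13.7 CPM (-2.92 ± 0.27) and MRE11A from 61.5 and 113 to 28.5 and 32.9 CPM (-1.51 ± 0.23), while the apical kinases ATM (0.39 ± 0.18, adjusted p = 0.13) and ATR (-0.05 ± 0.19, adjusted p = 0.87) did not pass the test. In mismatch and excision repair 4 of 21 members rose, among them XPC and DDB2 above, and 4 fell, against 10.2% and 12.1% of all tested genes. The falls in this list numbered 4, 4, 2 and 2 without each library in that order.

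The enzymes that doxorubicin acts on did not move alike. TOP2A, the isoform of dividing cells, was at 1022 and 1319.8 CPM untreated and 2.63 and 3.86 CPM treated, and TOP2B, which cells make in all phases, was at 335 and 505 and 440.5 and 508 CPM and did not pass the test (0.17 ± 0.19, adjusted p = 0.53). TDP1, which removes topoisomerase I adducts, fell from 36.6 and 47.3 to 19.96 and 20.4 CPM (-1.06 ± 0.21), and TDP2, which removes those of topoisomerase II, did not pass the test (-0.08 ± 0.16). Of 16 pump and reductase genes 1 rose and 1 fell, with a list median of 0.14. The member that fell was CBR3, a carbonyl reductase of anthracyclines, from 15.8 and 18.0 to 1.56 and 3.33 CPM (-2.79 ± 0.36, adjusted p = 4.3e-05). ABCB1, the efflux pump MDR1, was at 33.2 and 68.5 CPM untreated and 21.3 and 30.9 CPM treated and missed the threshold (-0.97 ± 0.34, adjusted p = 0.051).

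Genes of growth and metabolism fell in part, where 12.1% of all tested genes fell and 10.2% rose. Of 43 ribosome biogenesis genes 14 fell and none rose, with a list median of -0.32 by TMM and 0.08 by spike-in scaling. Without untreated B, untreated C, treated B or treated C in turn the falls numbered 18, 11, 7 and 6 and the rises 0, 7, 0 and 0. FBL, the box C/D methyltransferase fibrillarin, fell from 32.5 and 33.3 to 10.1 and 12.7 CPM (-1.53 ± 0.21, adjusted p = 7.2e-05), and TCOF1, treacle of the nucleolus, from 106 and 118 to 61.3 and 49.6 CPM (-1.02 ± 0.17). Of 75 cytosolic ribosomal protein genes 5 rose and 1 fell, and in the same order of libraries left out 1, 16, 0 and 1 rose. Among MYC targets of growth and metabolism 11 of 25 fell (13, 11, 7 and 8 in that order), among them SHMT1, a folate enzyme, from 22.4 and 20.3 to 2.68 and 2.32 CPM (-3.09 ± 0.34, adjusted p = 7.7e-06). CAD, the first enzyme of pyrimidine synthesis, fell from 82.4 and 76.8 to 36.5 and 31.9 CPM (-1.22 ± 0.21), and the purine enzyme PAICS from 178 and 202 to 89.1 and 90.7 CPM (-1.08 ± 0.18). In glycolysis the phosphofructokinase genes moved apart, PFKP falling from 289 and 312 to 158 and 140.1 CPM (-1.01 ± 0.18) and PFKM rising from 57.1 and 74.9 to 112 and 116 CPM (0.79 ± 0.17). FDPS, farnesyl diphosphate synthase, fell from 217 and 203 to 106 and 111 CPM (-0.95 ± 0.14), 1 of 5 falls among 25 cholesterol and fatty acid genes. In that order 4, 7, 1 and 3 members of that list fell.

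Lysosomal and autophagy genes rose in part. Of 39 tested 18 rose and 2 fell, and 21, 19, 11 and 14 rose without untreated B, untreated C, treated B and treated C. FUCA1, alpha-fucosidase and a known p53 target, rose from 39.8 and 44.1 to 155 and 148 CPM (1.85 ± 0.23, adjusted p = 2.2e-05). HEXA, a subunit of hexosaminidase, rose from 75.4 and 73.9 to 132 and 151 CPM (0.92 ± 0.14), PSAP, the saposin precursor, from 989.8 and 843 to 1876 and 1728 CPM (0.98 ± 0.18), and the ATG8-family genes GABARAPL1, GABARAPL2 and MAP1LC3B by 1.39, 1.05 and 0.85. GLA, alpha-galactosidase, was among those that fell (15.3 and 15.9 to 7.16 and 9.71 CPM, -0.89 ± 0.18). GLB1, which encodes the enzyme behind senescence-associated beta-galactosidase staining, rose from 67.4 and 49.5 to 82.2 and 81.9 CPM (0.49 ± 0.16, not called in 7 of the 8 fits without 1 library, adjusted p up to 0.19 without untreated library C).

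Stress programmes moved in a few members, where 10.2% of all tested genes rose and 12.1% fell. Of 21 integrated stress response genes 4 rose (5, 2, 2 and 3 without untreated B, untreated C, treated B and treated C), among them the sestrin SESN2, and the treated libraries stood apart for several of the others: ASNS was at 125 and 36.6 CPM, PHGDH at 157 and 44.0 CPM and SLC7A11 at 193 and 69.3 CPM after treatment, against 45.3 and 24.3, 81.5 and 73.0 and 56.0 and 70.9 CPM untreated, and none of these passed the test. ATF4 itself was at 212 and 138 and 207 and 113 CPM (-0.13 ± 0.33). Of 21 endoplasmic reticulum chaperones 4 rose (3, 8, 2 and 2 in that order) and 1 fell. DNAJB9 rose from 13.4 and 21.5 to 48.3 and 51.3 CPM (1.51 ± 0.23, adjusted p = 1.8e-04), and HSPA5 (0.42 ± 0.23) did not pass the test. In redox defence the thioredoxin-binding TXNIP rose from 219 and 156 to 765 and 918 CPM (2.17 ± 0.29) and GCLM, of glutathione synthesis, fell from 16.4 and 23.3 to 9.06 and 7.49 CPM (-1.27 ± 0.28), while the NRF2 target HMOX1 (-0.69 ± 0.27) did not pass the test.

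Secreted factors rose in part. Of 45 listed factors of the senescent secretome 11 rose and 1 fell. GDF15, a stress cytokine of the TGF-beta superfamily, went from 11.9 and 2.27 to 257 and 206 CPM (5.07 ± 0.68, adjusted p = 6.2e-05). CSF1, the macrophage growth factor, rose from 110.2 and 52.3 to 398 and 298 CPM (2.10 ± 0.38), VEGFA from 24.1 and 20.1 to 73.8 and 51.4 CPM (1.503 ± 0.25), and IL1B from 0.330 and 0.519 to 5.55 and 3.82 CPM (3.42 ± 0.49). IL6 had 3 counts in the untreated group and rose to 1.22 and 0.869 CPM, a ratio of 15.0 (95% counting interval 4.81 to 75.8) (not called in 2 of the 8 fits without 1 library, adjusted p up to 0.061 without treated library B). The matrix metalloproteinase gene MMP10 fell from 14.7 and 5.74 to 0.146 and 0.773 CPM (-4.45 ± 0.80, adjusted p = 8.8e-04), and the chemokine genes IL8 (-1.37 ± 0.57, adjusted p = 0.099) and CXCL1 (-2.07 ± 0.78, adjusted p = 0.07) were not called. Among IGF-binding proteins IGFBP7 rose from 0.440 and 0 to 6.33 and 3.24 CPM (4.57 ± 1.07), IGFBP3 from 41.7 and 39.5 to 121 and 234 CPM (2.13 ± 0.51, not called in 1 of the 8 fits without 1 library, adjusted p up to 0.091 without treated library C) and IGFBP5 from 99.8 and 48.1 to 268 and 449 CPM (2.28 ± 0.55, not called in 2 of the 8 fits without 1 library, adjusted p up to 0.069 without treated library C). Without untreated B, untreated C, treated B and treated C in turn 4, 3, 3 and 1 members of the IGF list rose, against 4 of 14, and 11, 9, 8 and 7 of the secretome list. TGFA, a ligand of the EGF receptor, was at 1.76 and 1.40 CPM untreated and 51.2 and 42.7 CPM treated.

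Of 23 NF-kappaB factors and targets 1 was higher (IL6) and 4 were lower, against 10.2% and 12.1% of all tested genes. NFKB2, the p100 precursor of the alternative pathway, fell from 38.2 and 24.5 to 10.3 and 9.61 CPM (-1.65 ± 0.36, adjusted p = 0.0038) and its partner RELB from 19.7 and 9.29 to 5.16 and 4.49 CPM (-1.58 ± 0.34, adjusted p = 0.0037, not called in 1 of the 8 fits without 1 library, adjusted p up to 0.062 without untreated library B). NFKBIA, the inhibitor and target of the canonical pathway, fell from 43.6 and 50.7 to 33.7 and 26.2 CPM (-0.65 ± 0.20, not called in 2 of the 8 fits without 1 library, adjusted p up to 0.19 without treated library C). Without untreated B, untreated C, treated B and treated C in turn 4, 7, 5 and 2 members fell.

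Interferon and antigen presentation genes rose in part: 11 of 43 interferon-stimulated genes rose and 1 fell, and 7, 15, 5 and 5 rose without untreated B, untreated C, treated B and treated C. IFIT2 went from 4.45 and 8.02 to 24.1 and 29.5 CPM (2.09 ± 0.29, adjusted p = 7.2e-05), STAT2, of the complex that transmits type I interferon signals, from 62.1 and 47.2 to 127 and 155 CPM (1.36 ± 0.20), and the RNA sensor IFIH1 from 5.00 and 10.4 to 19.4 and 16.6 CPM (1.22 ± 0.26). OAS3, a sensor of double-stranded RNA, was the member that fell (-1.02 ± 0.26, not called in 1 of the 8 fits without 1 library, adjusted p up to 0.088 without treated library B), and MX1 (-1.10 ± 0.53) did not pass the test. Of 16 genes of MHC class I presentation 5 rose and 2 fell, TAP2 from 52.9 and 53.2 to 32.5 and 30.6 CPM (-0.75 ± 0.15) among them. In the same order 4, 3, 1 and 2 rose. The complement genes C1S (23.0 and 24.2 to 65.7 and 108 CPM, 1.88 ± 0.33) and CD46 (107 and 114 to 222 and 262 CPM, 1.13 ± 0.21) rose, in a list where 3 of 13 rose and 1 fell, C5 (-0.82 ± 0.26, not called in 3 of the 8 fits without 1 library, adjusted p up to 0.14 without treated library C). Without each library in the same order 2, 3, 4 and 2 complement genes rose and 1, 0, 0 and 0 fell.

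Matrix and cytoskeletal genes moved in both directions. Of 32 collagens 9 rose and 2 fell, and 11, 5, 4 and 4 rose without untreated B, untreated C, treated B and treated C. The basement membrane chain COL4A5 rose from 24.9 and 20.3 to 64.3 and 76.4 CPM (1.64 ± 0.18, adjusted p = 6.7e-06) and COL4A4 from 0.330 and 0.0798 to 3.26 and 3.33 CPM (4.05 ± 0.97), while COL6A1 fell from 336 and 218 to 135 and 139 CPM (-1.01 ± 0.22, not called in 1 of the 8 fits without 1 library, adjusted p up to 0.065 without untreated library B). THBS2, an antiangiogenic matricellular protein, rose from 346 and 152 to 1173 and 1094 CPM (2.19 ± 0.37, adjusted p = 5.3e-04). Of 24 contractile genes 9 fell and 1 rose, with a list median of -0.09 by TMM and 0.64 by spike-in scaling. CALD1, caldesmon, rose from 1447 and 1272 to 3401 and 3212 CPM (1.28 ± 0.25); the falls, such as ZYX, zyxin of focal adhesions (291 and 101 to 80.2 and 59.5 CPM, -1.49 ± 0.40, not called in 2 of the 8 fits without 1 library, adjusted p up to 0.35 without untreated library B), numbered 2, 10, 4 and 0 in that order. Most receptor and adhesion genes were not called. In TGF-beta and activin signalling 9 of 32 rose and 1 fell, of 21 integrins 3 rose and none fell, and of 23 cadherins and adhesion molecules 3 rose and 1 fell, against 10.2% and 12.1% of all tested genes. In the same order of libraries left out 8, 8, 5 and 5, 4, 3, 1 and 2 and 5, 2, 2 and 3 rose in the respective lists, and 0, 5, 0 and 0, 1, 2, 0 and 1 and 2, 2, 0 and 0 fell. Among the rises were the activin and TGF-beta receptor genes ACVR1 (1.07 ± 0.22) and TGFBR1 (77.4 and 80.0 to 192 and 190.4 CPM, 1.28 ± 0.22), the integrin ITGA4 (173 and 185 to 381 and 399 CPM, 1.12 ± 0.26), the cadherin CDH6 (2.55 ± 0.46) and the neural adhesion gene L1CAM (0 and 0.160 to 2.73 and 4.25 CPM, 5.19 ± 0.87).

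Of 40 axon guidance genes 6 rose and 1 fell, where 10.2% and 12.1% of all tested genes did, and 7, 7, 4 and 3 rose and 1, 4, 1 and 1 fell without untreated B, untreated C, treated B and treated C. EPHA4, a receptor of axon guidance, went from 0.934 and 1.08 to 17.1 and 21.7 CPM (4.26 ± 0.64, adjusted p = 1.7e-04), the semaphorin gene SEMA3D from 17.0 and 20.1 to 78.6 and 48.6 CPM (1.78 ± 0.34) and the semaphorin receptor PLXNB1 from 13.8 and 8.02 to 29.3 and 27.8 CPM (1.39 ± 0.24). NRP2, a neuropilin, fell from 221 and 182 to 84.9 and 92.4 CPM (-1.19 ± 0.17). In the neuropeptide and neurofilament list 5 of 15 rose and none fell (4, 2, 3 and 3 rose in that order). NEFL, the light neurofilament, rose from 44.7 and 66.9 to 273 and 258 CPM (2.25 ± 0.29, adjusted p = 3.7e-05) and SYT1, a synaptic vesicle calcium sensor, from 22.9 and 25.4 to 95.1 and 84.9 CPM (1.90 ± 0.18). The adrenergic list held 8 tested members of 17, of which 0 rose and 1 fell (GATA2, -0.93 ± 0.26, not called in 2 of the 8 fits without 1 library, adjusted p up to 0.14 without treated library B). Of 18 mesenchymal markers 4 fell and 1 rose, with a list median of -0.25 by TMM and 0.24 by spike-in scaling: TWIST1 fell from 140.2 and 118 to 64.3 and 59.1 CPM (-1.07 ± 0.16, adjusted p = 2.2e-04). In the same order 3, 4, 3 and 1 mesenchymal markers fell. In the MYC network MYC was at 16.2 and 13.1 and 13.8 and 8.26 CPM and did not pass the test (-0.40 ± 0.37), and the antagonists MXI1 (8.63 and 5.55 to 21.1 and 18.4 CPM, 1.49 ± 0.25) and MXD1 (9.01 and 11.5 to 26.8 and 20.9 CPM, 1.21 ± 0.26) rose.

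**Figure D4:**
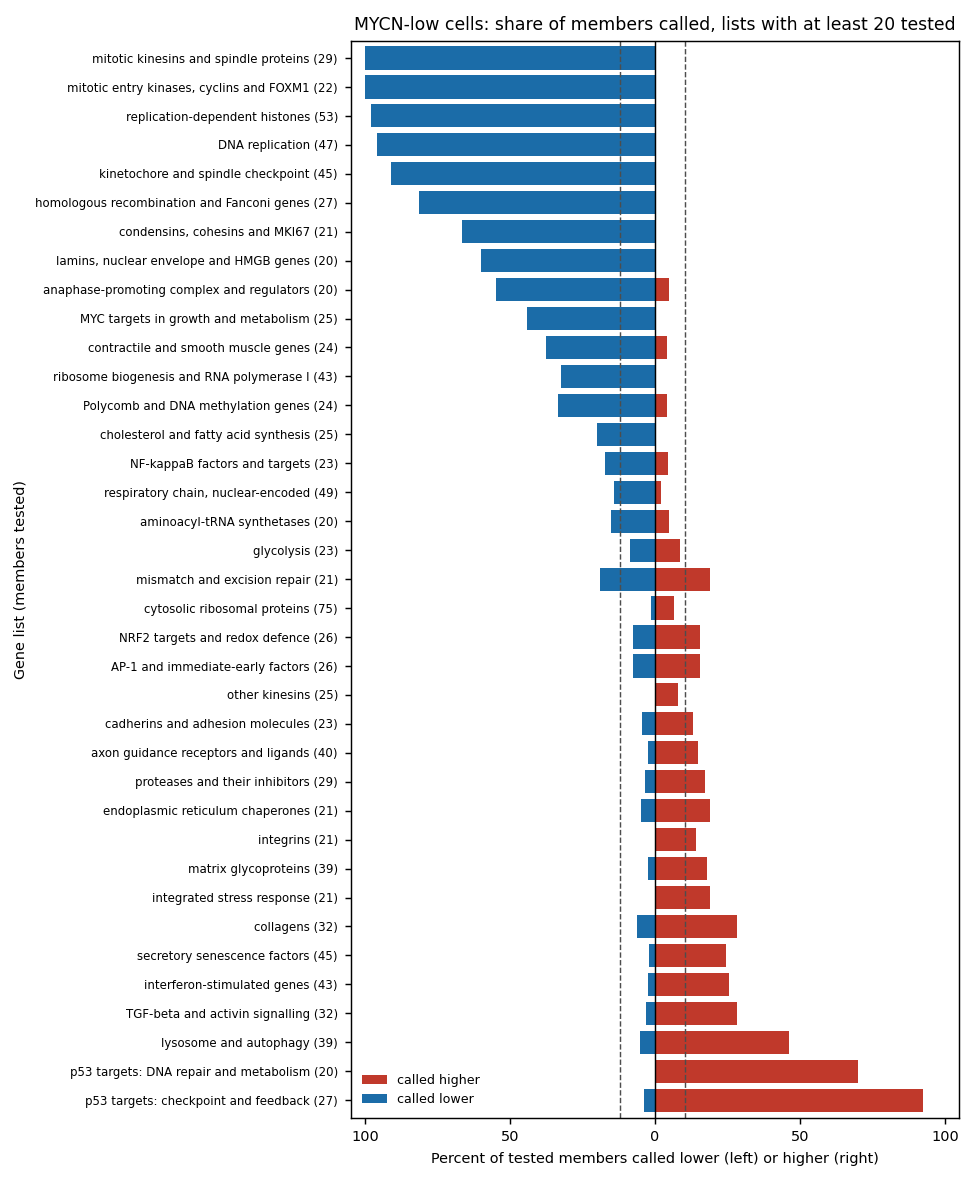
Percent of tested members called higher (red, to the right) and lower (blue, to the left) for gene lists with at least 20 tested members, with the number tested in brackets and dashed lines at the share of all tested genes, 10.2% higher and 12.1% lower. Mitotic kinesin, replication and replication-dependent histone lists reach far past the left line and the p53 checkpoint list far past the right one, while glycolysis lies within both lines.

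The same 72 h of doxorubicin in MYCN-high cells, with its own untreated controls, gave a response that differed in 1581 genes, 981 with MYCN-high above MYCN-low (6.63%) and 600 below (4.06%). A difference here is the log2 fold change in MYCN-high minus that in MYCN-low cells. Doxycycline sets the MYCN state, so a difference cannot be assigned to MYCN apart from doxycycline. The difference moved with GC content, from a median of -0.34 in the lowest to 0.76 in the highest quintile. Once the GC trend was removed 1157 genes differed, 642 above and 515 below, in a fit of 13089 instead of 14793 genes. Spike-in scaling left 0 called differences, with 0.0116% to 0.191% spike-in reads in the 4 MYCN-high libraries. Several of the deepest falls in MYCN-low cells were shallower in MYCN-high cells. RRM2 was at 10.6 and 49.5 CPM in treated MYCN-high cells, from 473 and 525 CPM, against 0.195 and 0.435 CPM in treated MYCN-low cells (difference 6.09 ± 0.92, adjusted p = 0.0022). TROAP kept 1.15 and 2.92 CPM and CDC45 3.01 and 8.90 CPM in treated MYCN-high cells (adjusted p of the difference 0.0018 and 0.0042). HJURP (0.806 and 8.42 CPM, adjusted p = 0.0085) and HIST1H3B (0.976 and 8.99 CPM, adjusted p = 0.0063) kept the call in all 8 fits that leave out a library. For HIST1H3G, KIF18B and E2F8 the difference (adjusted p = 0.019, 0.016 and 0.0096) did not hold throughout: not called in 5 of the 8 fits without 1 library, adjusted p up to 0.22 without treated MYCN-high library C for HIST1H3G, not called in 3 of the 8 fits without 1 library, adjusted p up to 0.11 without treated MYCN-high library C for KIF18B and not called in 1 of the 8 fits without 1 library, adjusted p up to 0.052 without treated MYCN-low library B for E2F8. In the mitotic kinesin list 17 of 29 members had a called difference above 0 and 0 one below 0.

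Outside the cell cycle genes differences lay on both sides. HMGA1 fell in MYCN-low cells and was at 179 and 148 CPM untreated and 180.1 and 567 CPM treated in MYCN-high cells (4.03 ± 0.70, adjusted p = 0.0045). NFKB2 went from 12.0 and 6.38 to 23.8 and 27.8 CPM in MYCN-high cells (3.15 ± 0.51, adjusted p = 0.0031), opposite to its fall in MYCN-low cells, and VCAM1, an adhesion target of NF-kappaB, from 13.0 and 12.2 to 274 and 290.3 CPM against 117 and 110.1 and 211 and 211 CPM (3.59 ± 0.64, adjusted p = 0.0052). CLDN4, a claudin of tight junctions, fell from 7.64 and 11.9 to 0.0974 and 0.241 CPM in MYCN-low cells and was at 6.97 and 2.64 and 10.0 and 9.09 CPM in MYCN-high cells (6.79 ± 0.89, adjusted p = 0.0011). VGF, a neuropeptide precursor, was at 1.12 and 0.531 CPM in treated MYCN-low and 24.1 and 189 CPM in treated MYCN-high cells (9.21 ± 1.48, adjusted p = 0.0031). On the other side stood KIT, the stem cell factor receptor, which rose from 131 and 200.2 to 378 and 359.9 CPM in MYCN-low and went from 189 and 202 to 27.1 and 15.1 CPM in MYCN-high cells (-4.36 ± 0.37, adjusted p = 5.8e-05). OXTR was at 129 and 110.5 CPM in treated MYCN-low and 1.06 and 0.144 CPM in treated MYCN-high cells (-5.12 ± 0.81, adjusted p = 0.0028), LPPR4 at 17.9 and 12.8 and 0.339 and 0.0957 CPM (-5.33 ± 0.92, adjusted p = 0.0042), and LGR5, the R-spondin receptor, at 16.6 and 26.1 and 1.78 and 2.77 CPM (-3.94 ± 0.78, adjusted p = 0.0083). KRT81 (-6.06 ± 1.22, adjusted p = 0.0089), MXRA5 (-5.97 ± 1.38, adjusted p = 0.016), OLR1 (-4.65 ± 1.20, adjusted p = 0.025) and TAGLN (-4.49 ± 1.02, adjusted p = 0.015) also had differences below 0. These calls depended on single libraries: not called in 1 of the 8 fits without 1 library, adjusted p up to 0.051 without treated MYCN-high library C for KRT81, not called in 3 of the 8 fits without 1 library, adjusted p up to 0.11 without untreated MYCN-high library C for MXRA5, not called in 5 of the 8 fits without 1 library, adjusted p up to 0.096 without treated MYCN-low library C for OLR1 and not called in 3 of the 8 fits without 1 library, adjusted p up to 0.075 without treated MYCN-high library C for TAGLN. TPM1, a tropomyosin, was at 2994 and 3333 and 4763 and 3171 CPM in MYCN-low and went from 1746 and 1197 to 305 and 185 CPM in MYCN-high cells (-2.91 ± 0.42, adjusted p = 0.0021). The p53 targets CDKN1A (1.44 ± 0.47, adjusted p = 0.062) and CYFIP2 (-0.07 ± 0.47, adjusted p = 0.95) did not pass the test of the difference, and PCNA did (-1.36 ± 0.27, adjusted p = 0.0086), with 294 and 331 CPM untreated and 151 and 171 CPM treated in MYCN-high cells, but its sign turned under spike-in scaling (0.55).

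**Figure D5:**
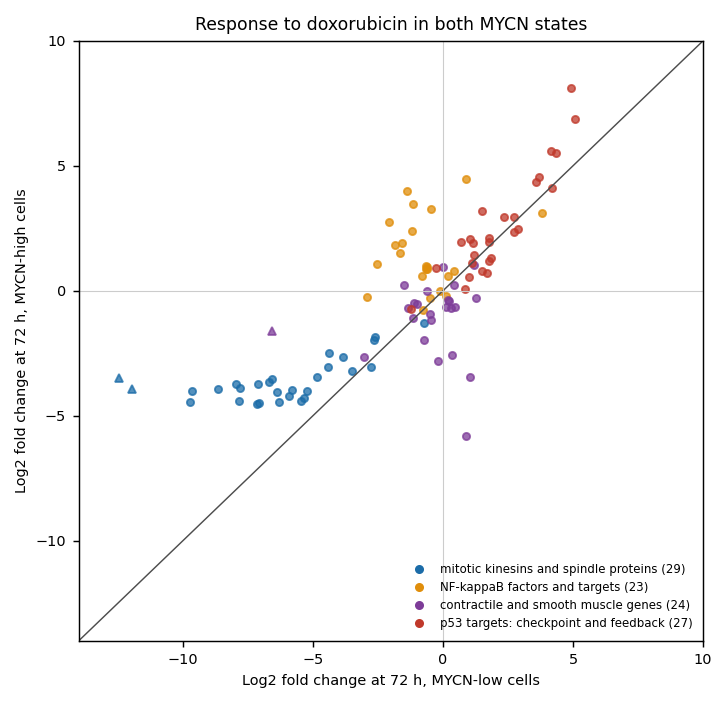
Log2 fold change at 72 h in MYCN-low cells (x axis) against MYCN-high cells (y axis) for the tested members of the mitotic kinesin, NF-kappaB, contractile and p53 checkpoint lists; the diagonal marks equal change and triangles are genes with 0 treated counts in MYCN-low cells. Above the diagonal lie 27 of 29 mitotic kinesin and spindle genes and 20 of 23 NF-kappaB genes. Below it lie 15 of 24 contractile genes. The p53 checkpoint targets lie on both sides, 17 of 27 above. These positions ignore calls, and the median difference of all tested genes was 0.03. Called differences above and below 0 numbered 17 and 0, 12 and 0, 0 and 7, and 3 and 1 in these lists, in that order. Of all tested genes 6.63% were called above and 4.06% below.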

How the data were processed

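RNA was measured in 19 libraries of 10 groups, of which 2 untreated and 2 treated MYCN-low libraries form the main comparison. The deposited table holds raw counts of reads per gene by the authors for 23367 genes and 92 ERCC spike-in RNAs, whose rows were left out of library sizes. The reads were processed with STAR 2.4.0h1, HTSeq and hg19, per the submitters' processing notes; the strand setting is not given in the sources used here, so reads of overlapping genes may not be told apart. The labels name polyA RNA as the molecule and ribosomal RNA depletion in the protocol. Total gene counts ran from 17069126 to 25872769 in the 4 libraries.

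Counts were tested with edgeR 4.0.16 in R 4.3.3: filterByExpr (14793 genes tested), TMM scaling, 1 quasi-likelihood fit over all 19 libraries, and Benjamini-Hochberg adjustment over all tested genes at 0.05. The difference between MYCN states is the interaction contrast. Standard errors are the log2 fold change divided by the root of F. A group at 0 counts was set to 3 counts over the group, which gives the "at least" folds, and a group of 1 to 3 counts has a ratio with an exact 95% interval. The fit was also run on simulated counts, whose outcome is not reported here. Those counts held no GC trend and gave each gene the same spread in all groups, unlike these data. Alternatives were DESeq2 1.42.0 (its size factors and its Wald test), no filter, a replicate block, ERCC scaling, only the libraries compared and each library left out, plus removal of the GC trend (transcript GC from GENCODE for 88.5% of tested genes), chosen after seeing the data.

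Genes were named by size (up to 12 per direction with a mean of at least 5 CPM, and up to 8 per direction for the difference), by smallest p within a list (up to 5 per direction), or as members that define a list, went against it or were not called. Those named by size in MYCN-low cells had both treated libraries above both untreated ones, or both below, by the rule of selection. The 64 gene lists and the members were chosen with earlier results of these data known, and some named members are not reported here. Promoter windows came from RefSeq (GRCh38.p14), matched for 11255 tested genes by symbol or older symbol. Figures were drawn with matplotlib.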

Additional observations from a re-analysis of the deposited data

Results flagged for a closer look

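The 72 h response differed between MYCN-high and MYCN-low cells, by the interaction test of edgeR, for 23 genes named above. Given as log2 response of MYCN-high minus that of MYCN-low cells, the differences above 0 were 9.21 for VGF, 6.81 for HJURP, 6.79 for CLDN4, 6.71 for HIST1H3B, 6.09 for RRM2, 4.66 for CDC45, 4.03 for HMGA1, 3.59 for VCAM1 and 3.15 for NFKB2. Those below 0 were -6.06 for KRT81, -5.97 for MXRA5, -5.33 for LPPR4, -5.12 for OXTR, -4.65 for OLR1, -4.49 for TAGLN, -4.36 for KIT, -3.94 for LGR5, -2.91 for TPM1 and -1.36 for PCNA. For genes with no count in treated MYCN-low libraries only the adjusted p of the difference is given: 0.0018 for TROAP, 0.0096 for E2F8, 0.016 for KIF18B and 0.019 for HIST1H3G. Treated MYCN-high libraries B and C stood apart for several of them, VGF at 24.1 and 189 CPM, HMGA1 at 180.1 and 567 CPM and HJURP at 0.806 and 8.42 CPM, and the part of that spread in the differences was not tested.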

How the results depend on the processing

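Calls in MYCN-low cells numbered 3344 with DESeq2 size factors, 3823 with its Wald test, 3780 without the filter and 3406 with the GC trend removed, against 3305. The GC fit covered only 13089 of the 14793 genes, here and for the difference, so its counts are over fewer genes. ERCC scaling left 60 (2 higher, 58 lower) and a fit of only the libraries compared 1183 (402 higher, 781 lower). Leaving out 1 library gave 1807 to 4819 calls, 752 to 2504 higher and 1055 to 2315 lower. For the difference between states 1581 calls became 2418 by the Wald test (1057 with MYCN-high below), 2627 without the filter (1606 above, 1021 below), 0 by ERCC scaling (0 above, 0 below), 334 in a fit of only the libraries compared (181 above, 153 below), 1157 with the GC trend removed (642 above, 515 below) and 453 to 4461 without 1 library (263 to 2146 above, 190 to 2315 below). Under ERCC scaling the called falls numbered 7 (against 22) in mitotic entry, 9 (29) in mitotic kinesins, 3 (45) in replication and 9 (52) in histones, and the called rises 0 (25) in p53 checkpoint targets. The list medians by TMM and ERCC scaling were -6.08 and -5.48, -6.31 and -5.79, -2.94 and -2.48, -4.94 and -4.53, and 1.75 and 2.31, in that order. The cause was not tested, except that fewer libraries enter the reduced fits. Among named genes the sign of a called value turned for PCNA, whose difference was 0.55 under ERCC scaling.

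With the letter as a replicate block 3552 genes were called in MYCN-low cells and 1882 for the difference. The letters are not shown to pair the libraries: the correlation of same-lettered deviations was over 0.1 in 24 of 36 pairs of groups and ranged from -0.34 to 0.44. With 2 libraries per group the spread comes from all 19 libraries, so a group that varies more than the others has p-values that are too small. Levels near 1 count rest on single reads.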
